A study of Mus musculus with 4 samples.

Results

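The homeostatic microglia genes examined here were 9 named genes, Cx3cr1, P2ry12, P2ry13, Tmem119, Csf1r, Gpr34, Siglech, Sall1 and Fcrls, taken by gene symbol from the 31055 genes counted in every library. Each symbol matched a single gene row. Their transcripts were followed in single cells of the hippocampus at 3 months of age, with 1 library per mouse, from 2 Dp(10)2Yey mice and 2 WT littermates, all male and on a C57BL/6J background. Dp(10)2Yey mice carry in every cell an extra copy of a segment of mouse chromosome 10 that matches part of human chromosome 21, WT littermates lack it, and none of the 9 genes lies on chromosome 10. The hippocampi of all 4 mice were dissociated with warm enzymes, without a sort for microglia, on consecutive days with 1 mouse of each genotype per day. Which replicate numbers shared a day is not given in the sources used here.

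Microglia are the resident macrophages of the brain parenchyma, and in the undisturbed adult brain they hold a set of surface receptors and regulators, often called homeostatic, that sense neuronal and extracellular signals. Cx3cr1 binds the neuronal chemokine fractalkine, Csf1r passes on the survival signal of Csf1 and Il34, P2ry12 and P2ry13 sense ADP, and Sall1 is a zinc finger transcription factor of the microglial lineage. Border macrophages of the meninges, perivascular spaces and choroid plexus are related cells that share Csf1r but are known for markers such as Mrc1 and Pf4.

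The libraries held 1039 and 1708 barcodes in WT and 1372 and 2345 in Dp(10)2Yey, with 3002546, 6848466, 5112759 and 9612011 unique molecular identifiers (UMIs, counted RNA molecules) in WT replicates 1 and 2 and Dp(10)2Yey replicates 1 and 2. Any pair of libraries shared 0 to 3 cell barcodes. After 183 barcodes with fewer than 200 genes and 17 red blood cells were left out, 6264 cells remained, clustered without the 9 genes and named from other markers. Microglia made up 1999 cells, with 309 and 535 in the WT libraries and 372 and 783 in the Dp(10)2Yey libraries. Their 21 other microglia markers summed to between 46419 and 48556 CPM (UMIs scaled to a total of 1000000 for a cell class in a library). Part of the border macrophage markers (Lyve1, Cd163, F13a1, Ms4a7, Cd209f and Clec4n) had 0 UMIs in microglia of every library. Mrc1 and Pf4, of the same marker list, were not absent from microglia, and the rest of that list is not given here. As a check of the genotype labels, 5 genes of the duplicated segment named in the study were read: Adarb1, Cstb, Prmt2, S100b and Trpm2. Each was higher in microglia of both Dp(10)2Yey libraries than in both WT libraries, a pattern found in 16.8% of all genes tested. Cstb was at 125 and 159 CPM in WT and 202 and 196 in Dp(10)2Yey. S100b was far lower, at 2.68 and 7.85 in WT and 15.3 and 14.7 in Dp(10)2Yey. None of the 5 passed an adjusted p of 0.01 by edgeR, and the rest of the segment is not given here.

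In the mouse genome build GRCm38, the ADP receptors P2ry12 (chr3:59216272-59262871) and P2ry13 (chr3:59207892-59210882) are neighbours on the minus strand and both lie within Med12l, which runs on the plus strand. Fcrls (chr3:87250758-87263738, minus strand) is on the same chromosome. Gpr34 (chrX:13632089-13640858, plus strand) lies within Cask, which runs on the other strand. The annotated Cx3cr1 gene (chr9:119901616-120069879, minus strand) spans Gorasp1, Csrnp1 and Xirp1 on its own strand. Tmem119 (chr5:113793729-113800516, minus), Siglech (chr7:55768178-55778925, plus) and Sall1 (chr8:89027235-89044162, minus) overlapped no other named gene.

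The 250 bases before the RefSeq start (GRCm38.p6) are shown for P2ry12 and P2ry13, the neighbouring receptors, and for Sall1, whose pattern across cell classes differed most from that of the other genes. They are given 5′ to 3′ on the gene's strand with each CG dinucleotide in capitals.
P2ry12, chr3:59262986-59263235, minus strand: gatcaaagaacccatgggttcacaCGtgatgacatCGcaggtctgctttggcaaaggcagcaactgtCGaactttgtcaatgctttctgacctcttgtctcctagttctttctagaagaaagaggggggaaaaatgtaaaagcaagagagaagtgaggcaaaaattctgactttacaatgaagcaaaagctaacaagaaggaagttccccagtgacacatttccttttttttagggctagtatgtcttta
P2ry13, chr3:59210883-59211132, minus strand: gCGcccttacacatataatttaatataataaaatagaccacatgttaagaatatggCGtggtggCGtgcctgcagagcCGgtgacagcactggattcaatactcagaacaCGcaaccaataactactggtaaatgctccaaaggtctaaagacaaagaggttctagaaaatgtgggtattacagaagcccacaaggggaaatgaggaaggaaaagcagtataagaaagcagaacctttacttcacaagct
Sall1, chr8:89044163-89044412, minus strand: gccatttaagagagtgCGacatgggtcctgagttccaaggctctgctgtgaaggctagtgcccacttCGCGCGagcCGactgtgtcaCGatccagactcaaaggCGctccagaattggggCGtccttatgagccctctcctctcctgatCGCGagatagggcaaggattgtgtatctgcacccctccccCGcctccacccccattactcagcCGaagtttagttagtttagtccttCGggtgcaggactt
The Sall1 window held 13 CG dinucleotides, the P2ry13 window 5 and the P2ry12 window 3, beside a median of 6 over 32851 mouse windows of this length, 68.5% of which held fewer than that of Sall1. The letters GAGGAA, the core recognised by the myeloid factor PU.1, were searched on both strands. The P2ry13 window held them 48 bases before the start, while the windows of P2ry12 and Sall1 did not, and 23.3% of all windows held them on either strand.

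In microglia, the receptors for a neuronal chemokine and a growth factor led the set. Levels are given in CPM as defined above, a sum that cannot tell fewer cells with a transcript from less RNA per cell. The reads come from transcript ends and were not divided by transcript length, so the order among genes is an order of counted molecules. Cx3cr1, the fractalkine receptor, reached 4153 and 4254 in the WT libraries and 4378 and 4760 in the Dp(10)2Yey libraries (mean 4387 ± 266 SD, n = 4). Neither Dp(10)2Yey library was as low as the higher WT library. Csf1r (chr18:61100598-61132149, plus strand), the growth factor receptor on which microglial survival depends, was at 2754 and 2406 in WT and 2811 and 2325 in Dp(10)2Yey (mean 2574 ± 244). Both libraries numbered 1 were above both numbered 2, and the genotypes overlapped.

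Among the receptors for nucleotides and lipids, P2ry12 stood at 2208 and 2390 CPM in WT and at 2112 and 2185 in Dp(10)2Yey (mean 2224 ± 118 SD, n = 4). P2ry12 guides microglial processes towards ADP, and its 2 Dp(10)2Yey values were both below the WT values. P2ry13, the second ADP receptor, was several times lower, at 474 and 577 in WT and 471 and 484 in Dp(10)2Yey (mean 502 ± 50.5), and WT replicate 2 was the highest library. Gpr34, a receptor for lysophosphatidylserine, gave 1771 and 1810 in WT and 1606 and 1701 in Dp(10)2Yey (mean 1722 ± 89.7), again with both Dp(10)2Yey values below WT.

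The remaining surface proteins lay close together. Fcrls, an Fc receptor-like scavenger receptor, was at 1316 and 1231 CPM in WT and 1155 and 1301 in Dp(10)2Yey (mean 1251 ± 73.7 SD, n = 4). Siglech, a sialic acid-binding lectin that signals through the adaptor Tyrobp, was at 1336 and 1210 in WT and 1235 and 1082 in Dp(10)2Yey (mean 1216 ± 104). For both genes the genotypes overlapped. Tmem119, a membrane protein widely used to mark microglia, was at 1108 and 980 in WT and 1060 and 1050 in Dp(10)2Yey (mean 1049 ± 52.9). The transcription factor Sall1 was the lowest, at 255 and 263 in WT and 275 and 269 in Dp(10)2Yey (mean 265 ± 8.85), and both Dp(10)2Yey values lay above WT. In the order of the means, the library ranges overlapped between the neighbours Csf1r and P2ry12, between Fcrls and Siglech and between Siglech and Tmem119, and the other neighbours did not overlap.

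**Figure D1:**
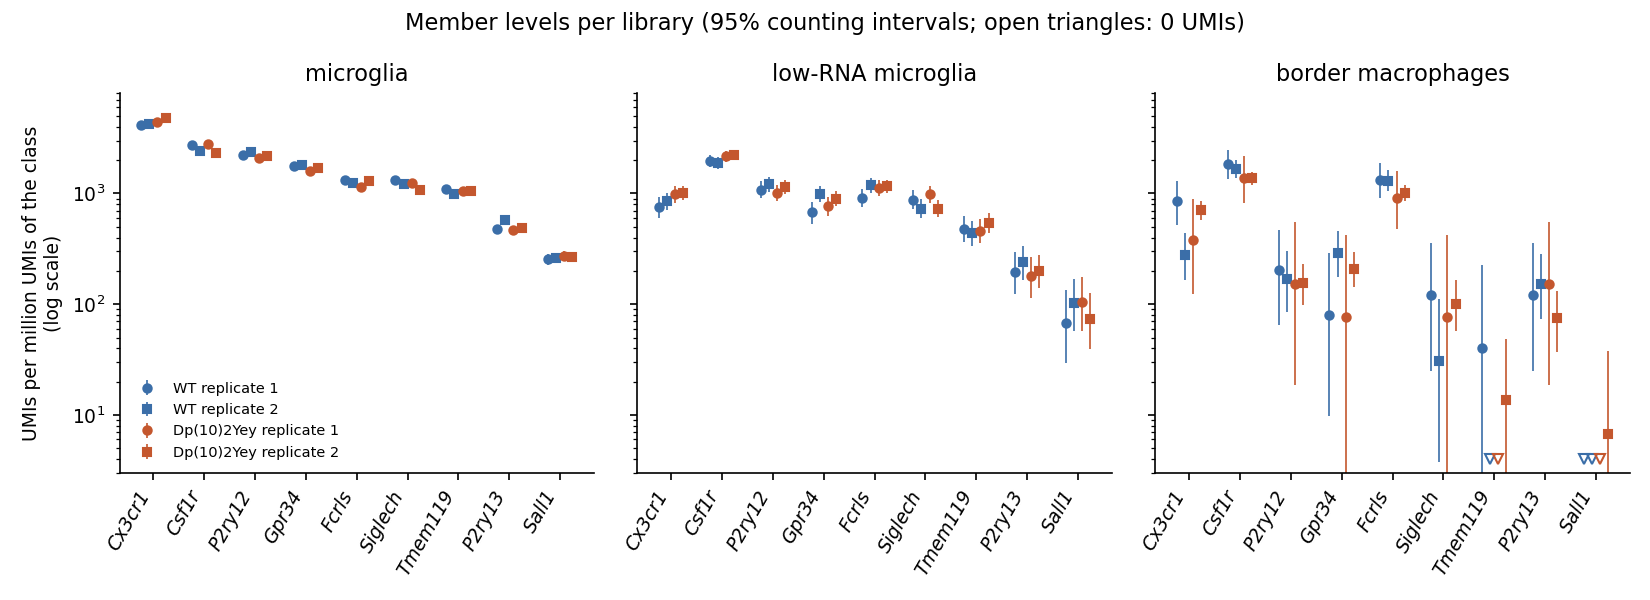
Level of each of the 9 genes in CPM on a log axis, in microglia, low-RNA microglia (barcodes with microglia markers but few UMIs) and border macrophages, with a point for each of the 4 libraries, vertical lines for exact Poisson 95% intervals and open triangles for 0 UMIs. In microglia Cx3cr1 is highest and Sall1 lowest in every library, while in the low-RNA barcodes and in border macrophages Csf1r and Fcrls stand above Cx3cr1 in every library.

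The shares of microglia with at least 1 UMI followed the same order when every cell was thinned to 1000 UMIs, which left out between 8 and 33 shallower cells per library. Over the libraries, Cx3cr1 was found in 95.7 to 98.2% of cells, Csf1r in 88.5 to 93.5%, P2ry12 in 82.6 to 88.5% and Gpr34 in 76.1 to 79.7%. Fcrls (64.8 to 71.4%), Siglech (63.2 to 71.0%) and Tmem119 (63.2 to 66.7%) formed a middle group. P2ry13 was found in 38.0 to 44.7% and Sall1 in 19.6 to 24.4%. Without thinning, Cx3cr1 was found in 97.1 to 99.8% and Sall1 in 53.7 to 64.2%, at median depths of 3667 to 4430 UMIs per microglial cell. In oligodendrocytes, which should lack the 8 genes other than Sall1 and had median depths of 4360 to 5046.5 UMIs, the thinned shares were at most 2.34% for those 8 genes. For Sall1 they were 2.30 to 7.04%.

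Whether the extra chromosome 10 segment altered the homeostatic genes was tested on UMIs summed per library over all microglia, with edgeR's quasi-likelihood test. None of the 9 genes passed an adjusted p of 0.01, as in 0% of the 9080 genes tested, and none had an unadjusted p under 0.05, which 3.03% of all genes had. DESeq2 on the same sums also called none of the 9. The log2 fold changes of Dp(10)2Yey compared with WT ran from -0.16 for P2ry13 (SE 0.14) and -0.16 for Siglech (SE 0.13) to 0.10 for Cx3cr1 (SE 0.12), each with an adjusted p of 0.9998 by edgeR. Two-sided 95% intervals of these changes reached no lower than -0.46 (P2ry13) and no higher than 0.35 (Cx3cr1). For the marker Tmem119 the change was -0.0042 with an interval from -0.27 to 0.26, and for Csf1r it was -0.03 with an interval from -0.30 to 0.25.

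By sign, 2 of the 9 genes (Cx3cr1 and Sall1) were fitted higher and 7 lower in Dp(10)2Yey, with a median log2 fold change of -0.07 beside -0.00044 over all genes, 49.9% of which were fitted higher. Cx3cr1 and Sall1 had both Dp(10)2Yey libraries above both WT libraries, a pattern found in 16.8% of all genes tested. P2ry12 (-0.12) and Gpr34 (-0.14) had both below, as did 13.3% of all genes. None of the changes exceeded the spread between libraries by the test.

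**Figure D2:**
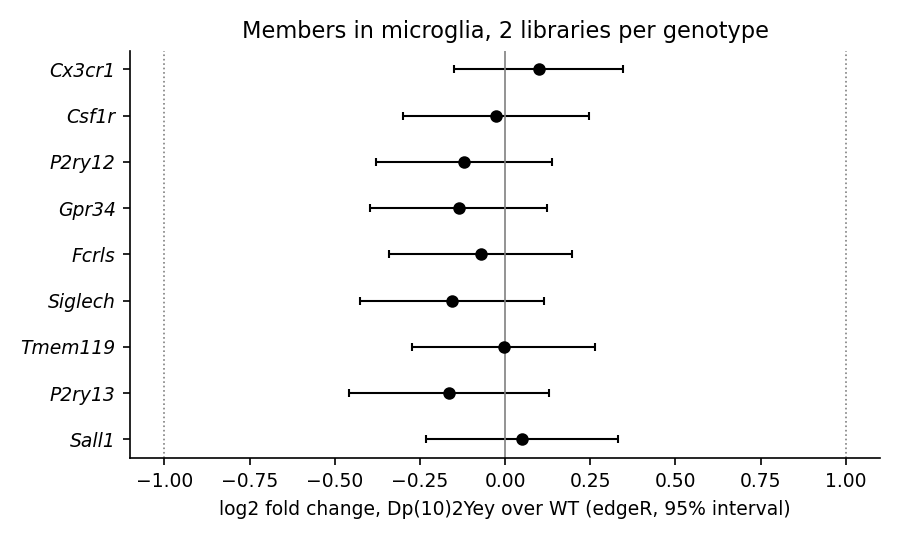
Log2 fold change of Dp(10)2Yey compared with WT in microglia for each of the 9 genes, with two-sided 95% intervals from edgeR as horizontal lines, a solid line at 0 and dotted lines at -1 and 1. All 9 intervals include 0, and the fitted changes lie between -0.16 and 0.10.

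The microglia fell into 2 clusters that differed in the level of every one of the 9 genes in the same direction. The larger, of 1609 cells, was led by the chemokine gene Ccl4 and by Atf3 and Nfkbiz, and the smaller, of 390 cells, held Laptm5, C1qa, Olfml3 and Trem2 among its 10 leading genes, which the larger did not. Selplg and Ctss were among the 10 leading genes of both. Relative to all microglia of the same library, the smaller cluster stood at 122% ± 5.09 (SD, n = 4) for Cx3cr1, at 124% ± 7.83 for Csf1r and at 136% ± 5.79 for P2ry12. Sall1 was at 130% ± 10.3 and Tmem119 at 135% ± 13.9. In the larger cluster the 9 genes lay between 93.4% and 95.9%. These values describe clusters formed on other genes of the same cells and carry no test.

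A further 575 barcodes with microglia markers but a median of only 806 UMIs, termed low-RNA microglia, held the genes unevenly. Fcrls stood at 88.0% ± 12.9 (SD, n = 4) of the microglia level and Csf1r at 80.7% ± 10.7, followed by Siglech at 68.3% ± 8.09. P2ry12, Gpr34, Tmem119, P2ry13 and Sall1 lay between 50.1% and 32.8%. Cx3cr1, the most abundant of the set in microglia, was the lowest at 20.5% ± 1.89, with 751 and 854 CPM in WT and 983 and 1020 in Dp(10)2Yey. No gene of the set was called there by edgeR (0% of 1351 genes tested, 3.55% with an unadjusted p under 0.05 and none of the 9). Both Dp(10)2Yey libraries were above WT for Cx3cr1 and Csf1r, as for 21.6% of the genes tested in these barcodes.

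How far the genes varied together from cell to cell depended on the depth per cell. In microglia thinned to 1000 UMIs, the median Pearson correlation over the 36 pairs of genes was 0.10 and 0.07 in WT and 0.08 and 0.07 in Dp(10)2Yey, with single pairs between -0.06 and 0.21. The highest mean over libraries was that of Cx3cr1 and P2ry12 (0.17, range 0.16 to 0.18), followed by Gpr34 and Fcrls (0.15) and P2ry12 and Gpr34 (0.14). Siglech and Sall1 had the lowest (-0.0096). The median over pairs, averaged over the libraries, was 0.08 at this depth, 0.12 in cells thinned to 2000 UMIs and 0.40 without thinning, where cells also differed in depth. Each cell contributed a median of 15 or 16 UMIs of the 9 genes together, so these correlations describe sparse counts, and cells of a library share its preparation.

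**Figure D3:**
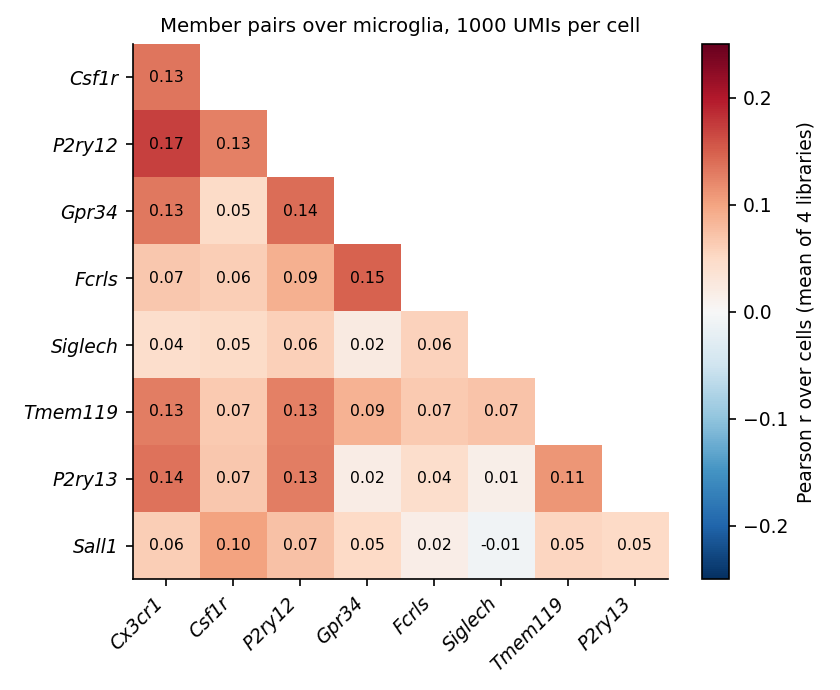
Pearson correlation of each pair of the 9 genes over microglia thinned to 1000 UMIs, as the mean over the 4 libraries. At this depth the values run from -0.0096 for Siglech with Sall1 to 0.17 for Cx3cr1 with P2ry12.

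The summed 9 genes ran opposite to the genes of activation and tissue dissociation over the same thinned cells. With that list of 27 genes the correlation was -0.32 and -0.25 in WT and -0.36 and -0.24 in Dp(10)2Yey. With 36 other homeostatic genes it was 0.20, 0.22, 0.19 and 0.12 in the same order, and with the disease-associated microglia genes it lay between -0.14 and -0.05. With every cell fixed at 1000 UMIs, more UMIs of any genes leave fewer for others. Of 1276 further genes, Selplg (0.24) and Sparc (0.19), both abundant in resting microglia, were among those with the highest mean correlation with the sum. Tpt1 (-0.26), Nfkbia (-0.24), an inhibitor of NF-kB, and the ferritin gene Fth1 (-0.24) had the lowest.

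No gene of the related lists was called between genotypes in microglia either. Of 36 other homeostatic genes, 21 were fitted higher and 15 lower in Dp(10)2Yey microglia (median log2 fold change 0.03) and none was called by edgeR at an adjusted p of 0.01 or had an unadjusted p under 0.05. Of 27 activation and dissociation genes, 12 were fitted higher (median -0.03), none was called and 3 had an unadjusted p under 0.05, all lower, beside 3.03% of all genes in either direction. They were Klf2 (-0.45), Dusp1 (-0.29) and the heat shock gene Hspa1b (-1.27), which was at 250 and 46.3 CPM in WT and 102 and 24.1 in Dp(10)2Yey, so that its genotypes overlapped. Of 15 disease-associated genes tested, 2 were fitted higher and 13 lower (median -0.13), none was called, and 2 (Lgals3 and Lpl) had an unadjusted p under 0.05, both lower. Lgals3, which encodes galectin-3, had the largest fitted change of the list (-2.01, SE 0.54, adjusted p = 0.502 by edgeR), at 9.82 and 42.8 CPM in WT and 0.588 and 11.5 in Dp(10)2Yey. Lpl, which encodes lipoprotein lipase, had the lowest adjusted p by edgeR (log2 fold change -1.93, SE 0.41, adjusted p = 0.119). Lpl was at 20.5 and 99.9 CPM in WT and at 11.8 and 21.8 in Dp(10)2Yey, and for both genes WT replicate 2 was the highest and the genotypes overlapped.

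The ligands and partners of these receptors sat in other classes or in microglia themselves. Cx3cl1, the ligand of Cx3cr1, averaged 169 CPM in neurons, 59.3 in endothelial cells and 0.80 in microglia. Csf1 was highest in microglia (122), where it averaged 140 in the larger and 20.9 in the smaller cluster, followed by oligodendrocytes (84.7). Il34, the other Csf1r ligand, averaged 33.7 in endothelial cells and 8.42 in neurons and had 0 UMIs in microglia.

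Of the enzymes that degrade extracellular nucleotides, Entpd1 averaged 360 CPM in microglia and 185 in border macrophages, and Entpd2 averaged 184 in astrocytes. The nucleotide receptors P2rx7 and P2rx4 were higher in border macrophages (252 and 161) than in microglia (60.6 and 39.9). Tyrobp, the adaptor of Siglech, averaged 2829 in microglia and 3140 in border macrophages. In microglia, Csf1, Entpd1, P2ry6, P2rx4, P2rx7, Adora3, Tyrobp and Hcst could be tested between genotypes, and none was called by edgeR or had an unadjusted p under 0.05.

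Border macrophages shared only part of the set. This class held 89 cells, with 14 and 22 in WT and 8 and 45 in Dp(10)2Yey, too few in Dp(10)2Yey replicate 1 for a test between genotypes. It was named from Mrc1 and Pf4 (means of 2495 and 4955 CPM, beside 1.84 and 2.15 in microglia). Fcrls was nearly as high as in microglia, at 1331 and 1305 in WT and 916 and 1013 in Dp(10)2Yey, or 91.1% ± 14.6 (SD, n = 4) of the microglia level of the same library. Csf1r was at 1855 and 1673 in WT and 1374 and 1370 in Dp(10)2Yey (61.2% ± 9.38). For both genes the Dp(10)2Yey values were below WT, as for 12.4% of the 638 genes past the low-count filter in this class, and Dp(10)2Yey replicate 1 rested on 12 and 18 UMIs.

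The other receptors were a small part of their microglia level. P2ry13 stood at 24.97% ± 7.11 (SD, n = 4), against 7.63% ± 1.002 for its neighbour P2ry12. P2ry12 too had both Dp(10)2Yey values below WT (202 and 169 against 153 and 155 CPM), on 2 to 23 UMIs per library and below the filter. Cx3cr1 was at 12.6% ± 6.28, with 847 and 276 CPM in WT and 382 and 709 in Dp(10)2Yey. Gpr34 (9.43% ± 5.73) and Siglech (6.78% ± 3.17) were similarly low. Tmem119 gave 3 UMIs in 2 of the 89 cells and Sall1 gave 1 UMI.

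The border macrophages comprised sub-clusters of 46 and 43 cells with median depths of 4058.5 and 997 UMIs. Fcrls was at 1104 and 1160 CPM in them and Csf1r at 1520 and 1404, while Cx3cr1 was at 683 and 224. The 21 other microglia markers, some of which border macrophages also express, summed to between 31534 and 38914 CPM in border macrophages, where Slc2a5 and Csf3r had 0 UMIs in 3 of the 4 libraries. The part of microglial RNA in the border macrophage values was not tested.

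**Figure D4:**
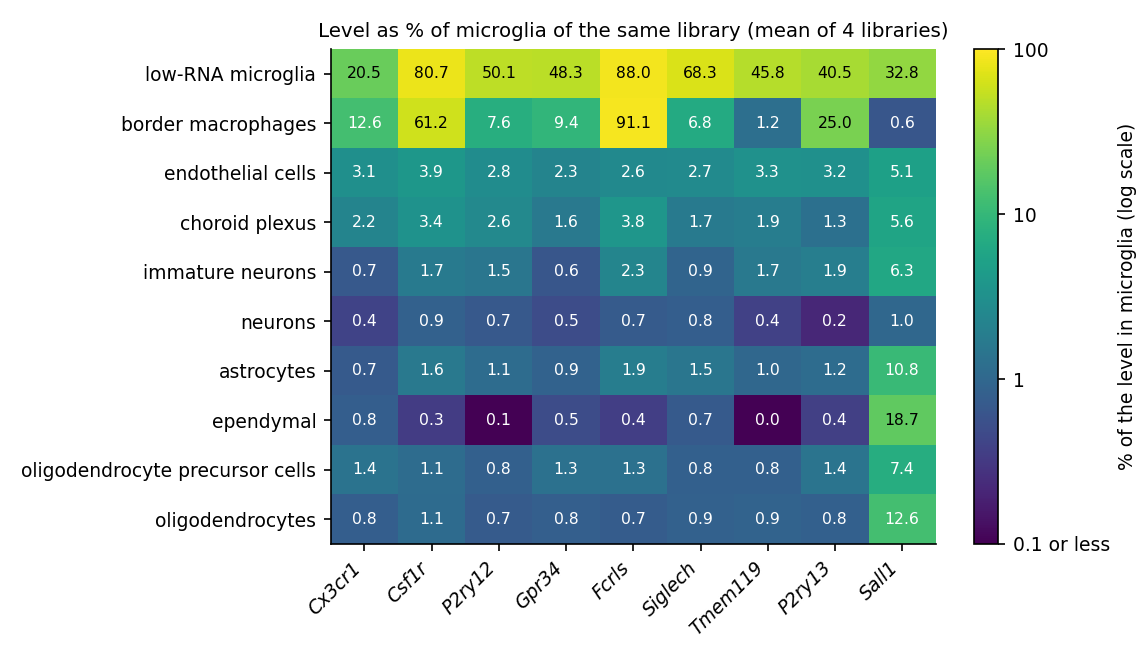
Level of each of the 9 genes in other cell classes as a percent of the microglia level of the same library (mean over the 4 libraries). Fcrls and Csf1r stand at 91.1% and 61.2% in border macrophages, and Sall1 is the gene with the highest percent in oligodendrocytes (12.6%) and astrocytes (10.8%).

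Over the 4 libraries together, most UMIs of the set in astrocytes, neurons and oligodendrocytes lay in a few cells. Astrocytes held 478 such UMIs (181 and 69.7 CPM in WT, 209 and 334 in Dp(10)2Yey), in 118 of 913 cells. Neurons held 162 (7.83 and 119 in WT, 110 and 122 in Dp(10)2Yey), in 41 of 451 cells, and oligodendrocytes 955 (93.4 and 173 in WT, 66.9 and 307 in Dp(10)2Yey), in 196 of 969 cells. Cells with 5 or more UMIs of the 21 other microglia markers, termed marker-rich, numbered 31 astrocytes, 29 neurons and 35 oligodendrocytes, and they held 79.3%, 82.7% and 79.1% of these UMIs. Single libraries departed from this, with 34.3% in astrocytes of WT replicate 2 and 52.9% and 9.76% in oligodendrocytes of WT replicate 1 and Dp(10)2Yey replicate 1, and the single UMI in neurons of WT replicate 1 lay outside such cells.

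Among these 3 classes, the 6 cells with most UMIs of the set, 5 oligodendrocytes and 1 astrocyte, held 72 to 114 of them each from 8 or 9 of the genes, and Scrublet called all 6 doublets. Cells called doublets held 276 of the 478 UMIs in astrocytes, 30 of 162 in neurons and 602 of 955 in oligodendrocytes. The 21 markers ran in the same order of libraries as the set in oligodendrocytes, at 167 and 667 CPM in WT and 89.7 and 1030 in Dp(10)2Yey. In neurons they were lowest in WT replicate 1, as was the set, but highest in Dp(10)2Yey replicate 1 (133 and 554 in WT, 715 and 546 in Dp(10)2Yey). In astrocytes WT replicate 1 had more of the markers than Dp(10)2Yey replicate 1 (1089 against 762) and less of the set. In cells that were not marker-rich, the 8 genes other than Sall1 together came to 24.6 CPM in astrocytes, 17.5 in neurons and 9.66 in oligodendrocytes.

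**Figure D5:**
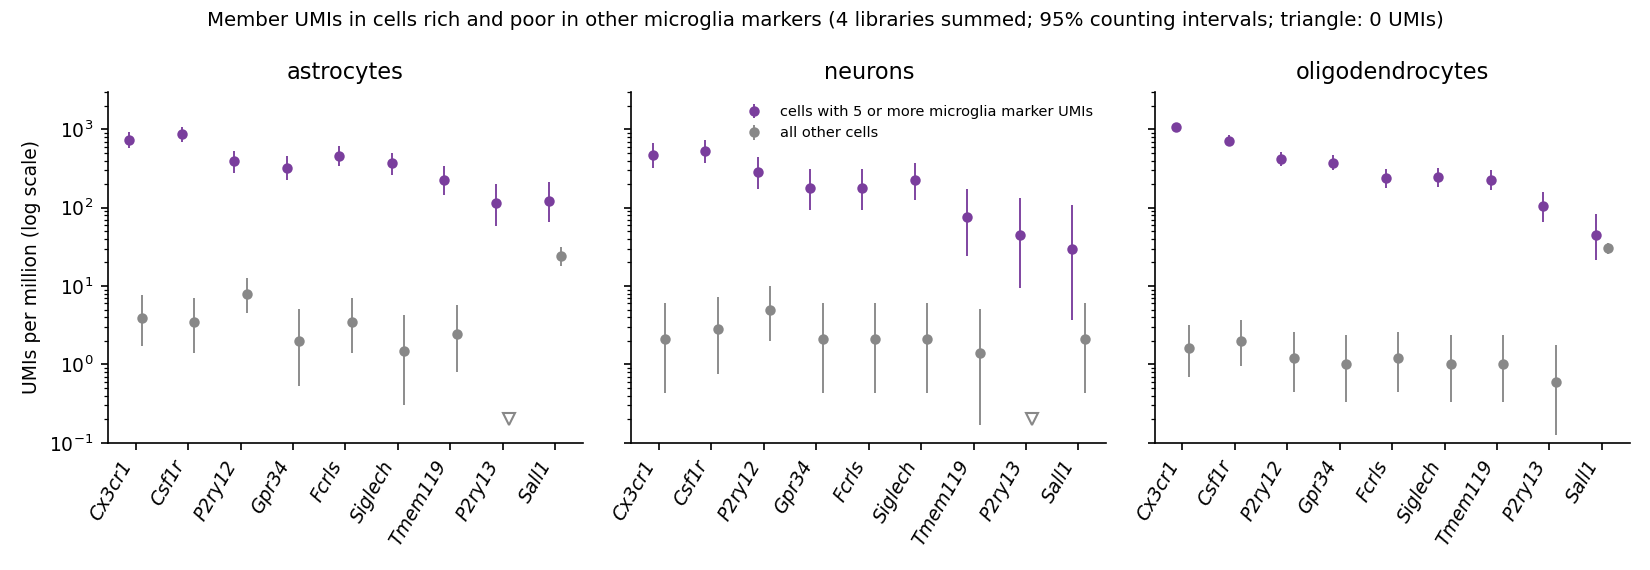
Level of each of the 9 genes in CPM on a log axis, over the 4 libraries summed, in marker-rich cells (purple) and all other cells (grey) of astrocytes, neurons and oligodendrocytes, with exact Poisson 95% intervals as vertical lines and an open triangle for 0 UMIs. Among the other cells Sall1 stands above the remaining 8 genes in oligodendrocytes (30.6) and astrocytes (24.1) but not in neurons (2.10).

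Sall1 did not follow this pattern. Its level was 20.5 and 35.9 CPM in WT and 33.9 and 24.4 in Dp(10)2Yey astrocytes (10.8% ± 2.64 of the microglia level, SD, n = 4). In oligodendrocytes it was 38.4 and 22.5 in WT and 44.8 and 27.8 in Dp(10)2Yey (12.6% ± 3.72). The genotypes overlapped in both classes, and the change was not called by edgeR in either.

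Of its 162 UMIs in oligodendrocytes, 10 lay in marker-rich cells and 152 were spread over 127 of the 934 other cells (30.6 CPM, exact Poisson 95% interval 25.9 to 35.9). In the other astrocytes 49 UMIs fell in 46 of 882 cells (24.1 CPM, interval 17.8 to 31.9), and in the other neurons 3 UMIs in 3 of 422 cells (2.10 CPM, interval 0.432 to 6.12). The neuronal interval lies below both others. In those same cells, which were chosen for few marker UMIs, P2ry12 gave 6 UMIs in oligodendrocytes, 16 in astrocytes and 7 in neurons. The source of the Sall1 UMIs was not tested. In ependymal cells Sall1 was at 90.5 and 64.9 CPM in WT and 19.1 and 20.9 in Dp(10)2Yey, on 2 to 13 UMIs per library (18.7% ± 13.9 of the microglia level over all 4). Both Dp(10)2Yey values were below WT, as for 12.1% of the 2820 genes tested in this class, and Sall1 had too few counts to be tested.

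Outside microglia 1 gene of the set was called between genotypes, Cx3cr1 in astrocytes. It had 2 UMIs in WT replicate 1 and 0 in WT replicate 2 (8.22 and 0 CPM) and 31 and 52 UMIs in Dp(10)2Yey (58.3 and 60.3). With so few UMIs in WT, the gene passed the low-count filter only through the Dp(10)2Yey libraries, where it was high, and was tested because of that level. The edgeR log2 fold change was 4.31 (SE 0.66, adjusted p = 8.43e-06), in a comparison that called 0.120% of 6647 genes. The ratio of pooled counts was 22.2 (95% counting interval 5.96 to 186). That interval treats each UMI as independent, which UMIs gathered in a few cells are not, so it is a description only. Of the 85 UMIs, 77 lay in marker-rich cells, and the 83 UMIs in Dp(10)2Yey came from 17 cells. In Dp(10)2Yey replicate 1, 27 of the 31 UMIs lay in 1 cell, the astrocyte with 77 UMIs of the set that Scrublet called a doublet. The summed 21 microglia markers were at 1089 and 291 CPM in WT and 762 and 1475 in Dp(10)2Yey astrocytes. Of 18 other homeostatic genes tested in astrocytes 6 had an unadjusted p under 0.05, and of 7 activation and dissociation genes 5 did, all higher in Dp(10)2Yey, beside 4.17% of all genes in either direction. Of these, 4 of the 6 and 2 of the 5 lacked the filter's level in at least 1 WT library, so that they too were tested by way of Dp(10)2Yey. Their part in the result was not tested. Without marker-rich cells, or without called doublets, Cx3cr1 had too few counts in astrocytes to be tested, and DESeq2 gave an adjusted p of 0.396.

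Leaving out WT replicate 2, Dp(10)2Yey replicate 1 or Dp(10)2Yey replicate 2 also ended the call in astrocytes. Of the other genes of the set tested in astrocytes, Fcrls alone had both Dp(10)2Yey libraries above WT (24.7 and 0 against 32.0 and 37.1 CPM). Its adjusted p was 0.389 by edgeR, and the pattern was found in 18.7% of genes. Gpr34 (8.22 and 9.96 against 15.1 and 26.7) and Tmem119 (4.11 and 3.98 against 11.3 and 23.2) also had it, on too few counts to be tested. In astrocytes 6 of the 9 genes could be tested, and 4 (Cx3cr1, Csf1r, Siglech and Fcrls) had an unadjusted p under 0.05, as did 4.17% of genes. None of the 4 reached the filter's level in both WT libraries (Fcrls had 6 and 0 UMIs there), so this count is a description. In neurons Csf1r alone could be tested, and in oligodendrocytes 8 of the 9 genes, with none called by edgeR (0% in both) or under an unadjusted p of 0.05 (3.84% and 2.66% of genes). None was called in oligodendrocyte precursor cells, where 0.0548% of genes were, or in endothelial cells (0%). In the precursor cells Cx3cr1 had an unadjusted p under 0.05 by edgeR (4.43% of genes). Of its 100 UMIs there, 97 lay in marker-rich cells (16 of 391 cells). In endothelial cells Gpr34 had an unadjusted p under 0.05 by edgeR (3.30% of genes), but it was tested only by way of its Dp(10)2Yey level. In endothelial cells P2ry12 and Gpr34 had both Dp(10)2Yey libraries above WT, as did 16.0% of genes. Gpr34 reached the filter's level there in neither WT library (4 and 12 UMIs), so its pattern is a description. DESeq2 called none of the 9 in any class outside microglia.

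Across 10 cell classes and 4 libraries, 40 points in all, the genes whose log2 levels ran most like the mean of the set were Selplg (Pearson r = 0.99), Laptm5 (0.99), Abi3 (0.98), Cd300c2 (0.98) and Fcgr2b (0.98). The set's own genes were at 0.96 to 0.99 except Sall1, at 0.83. These points share libraries and depth and are a description. Classes needed at least 10 cells in every library, so border macrophages (8 cells in Dp(10)2Yey replicate 1) were not among them.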

How the data were processed

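The authors prepared 10x Genomics 3′ single-cell libraries from hippocampus and deposited raw UMI counts per gene and cell from Cell Ranger 3.0.2 (per the labels) on a custom mm10 reference. The deposited counts were whole numbers and were not normalised. The 9 genes and the gene lists were chosen with earlier results of these data known.

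Barcodes with at least 200 genes were kept, and genes in more than 3 cells. Those with over 50% globin UMIs were left out. Following the study's settings, libraries were integrated with Seurat 5.3.0 (R 4.3.3; 2000 variable genes, 50 dimensions, resolution 0.2) without the 9 genes. Clusters were named from fixed markers, at least 3 among 50 leading genes, and microglia clusters far below their library's median depth (by 3 times or more) were kept apart, so class names were rebuilt here. Scrublet (scanpy 1.11.5) called 57 doublets (0.910%), which were kept in the main results.

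UMIs were summed and scaled to 1000000 (CPM) per library and class with at least 10 cells in each library. They were tested with edgeR 4.0.16 (TMM, filterByExpr, quasi-likelihood, no block, Benjamini-Hochberg adjusted p under 0.01), and with DESeq2 1.42.0 as an alternative. The labels give genotype and replicate number, and the study's methods give 1 mouse per library. The p-values rest on the spread between 2 libraries per genotype, which edgeR moderates with the spread of the other genes. The test was tried on simulated data. Intervals of levels are exact Poisson at 95% and cover counting error only, as does the exact binomial interval of the ratio of pooled counts. Intervals of log2 fold changes come from the edgeR fit and include the spread between libraries. Named genes outside the set were the 5 most alike, the 5 with the highest and lowest correlation, and the 5 largest changes of each list. Arithmetic was pinned to a single thread and kernel. Not every gene of the marker lists is reported here.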

Additional observations from a re-analysis of the deposited data

Results flagged for a closer look

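P2ry12 and Gpr34 were each below WT in both Dp(10)2Yey libraries of microglia (log2 fold changes of -0.12 and -0.14) and above WT in both Dp(10)2Yey libraries of endothelial cells (0.60 and 1.15). In endothelial cells P2ry12 gave 17.7 and 75.5 CPM in WT and 80.2 and 79.4 in Dp(10)2Yey, and Gpr34 gave 17.7 and 26.7 in WT and 58.8 and 49.1 in Dp(10)2Yey, a direction found in 16.0% of the genes tested there. Gpr34 lay below the low-count filter's level in both WT libraries of endothelial cells, so it was tested there by way of Dp(10)2Yey. The difference between the classes was not tested. In endothelial cells 95.9% of the UMIs of the 9 genes lay in 47 of 322 cells with 5 or more UMIs of other microglia markers. When the clustering was repeated with another linear algebra kernel, which moved the number of endothelial cells from 322 to 324, Gpr34 kept both Dp(10)2Yey libraries above WT and P2ry12 did not.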

How the results depend on the processing

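Under 17 alternatives no gene of the set passed the threshold in microglia, and 11 of 153 fitted changes turned sign. The alternative with a clustering resolution of 0.5 gave the same fitted values as the main fit, so it adds nothing to these counts. With the replicate number as a block 0 of the 9 were called in microglia, with a median log2 fold change of -0.07. Outside microglia 1 was called, as before. Over genes in microglia, the difference between replicates 1 and 2 in WT correlated with that in Dp(10)2Yey at r = 0.16. Whether a number marks a shared day is not known. The block moved the calls over all genes in microglia from 0 to 24. Leaving out single replicates, the largest absolute log2 change ranged from 0.18 to 0.31, P2ry13 from -0.31 to 0.015, Tmem119 from -0.067 to 0.069, Csf1r from -0.17 to 0.11 and Fcrls from -0.16 to 0.012, while Siglech (-0.25 to -0.058), P2ry12 (-0.19 to -0.034), Gpr34 (-0.17 to -0.094), Cx3cr1 (0.042 to 0.16) and Sall1 (0.014 to 0.10) kept their sign. Tmem119 also turned without a low-count filter (0.013) and with low-RNA microglia added (0.0043), and in the smaller microglia cluster alone Tmem119 (0.14), Csf1r (0.031) and Sall1 (-0.068) turned. The cause was not tested.

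Outside microglia, 1 call became 0 with DESeq2, 0 without doublets and 0 without marker-rich cells, and 1 to 5 when single replicates were left out (3 without WT replicate 1, 1 without WT replicate 2, 5 without Dp(10)2Yey replicate 1, 2 without Dp(10)2Yey replicate 2). Only without WT replicate 1 was Cx3cr1 in astrocytes among them, with Fcrls there and Cx3cr1 in choroid plexus. The others were Cx3cr1 in oligodendrocytes in each of the other 3 (log2 changes of 3.82, 1.58 and -2.19), Csf1r there without either Dp(10)2Yey library (1.26 and -2.32), and, without Dp(10)2Yey replicate 1, Cx3cr1 in choroid plexus and Cx3cr1 and Csf1r in immature neurons. In these fits the lone library is assumed to vary like the other genotype's, and genes could be tested through the library where they were high: all 26 UMIs of Cx3cr1 in choroid plexus lay in 1 cell of WT replicate 2, 44 of its 46 in immature neurons in 4 cells of Dp(10)2Yey replicate 2, and Cx3cr1 and Fcrls had 0 UMIs in astrocytes of WT replicate 2. These calls support no difference. For Cx3cr1 in astrocytes the log2 change was 4.34 by DESeq2 and 2.82 to 8.23 without single replicates. Without marker-rich cells the mean summed level of the set (CPM) fell from 198 to 51.3 in astrocytes, from 89.4 to 19.7 in neurons and from 160.0 to 42.2 in oligodendrocytes. Without thinning and at 2000 UMIs, which keep more UMIs per cell, the median pair correlation moved from 0.08 to 0.40 and 0.12, and the median share of microglia with a UMI from 67.9% to 94.6% and 88.2%.

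Another linear algebra kernel, tried after seeing the data, because cells near class borders had moved between runs, gave 13 of 6264 cells another class (0.207%) and changed no call. With 2 libraries per genotype, and 8 to 45 border macrophages per library, small differences could not be resolved.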
